A study of Mus musculus with 7 samples.

Results

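The genes described here are 10 that mark macrophages, namely Csf1r, Cd68, Lyz2, C1qa, C1qb, C1qc, Mrc1, Cd14, Tyrobp and Fcer1g. They were chosen by name, with earlier results of these data known. All 10 were measured, by 14 of the 45037 probe sets on the arrays and as 10 of 18193 genes. The arrays were Affymetrix Mouse Genome 430 2.0 arrays hybridised with RNA of prostate luminal cells, the secretory epithelium that lines the gland. There were 4 arrays of T-ETV1 cells (A to D), from mice in which the endogenous mouse Tmprss2 promoter drives a human cDNA of the ETS factor ETV1, and 3 arrays of wild-type cells (WT, A to C). Cells of both genotypes were sorted as CD49f positive and Sca1 negative, without cells that carried CD31, CD45 or Ter119, and the T-ETV1 cells were in addition GFP positive. Since WT cells had no GFP gate, the effects of genotype and gate cannot be told apart. CD45, encoded by Ptprc, is carried by blood-derived cells including macrophages, and such cells were selected against in both groups. Ages of the mice are not stated. The median intensity of an array, over all probe sets, lay between 48.5 and 62.9 in T-ETV1 and between 51.8 and 73.7 in WT. With 4 and 3 arrays a group, precision is limited by their number.

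Macrophages are phagocytes that reside in most tissues, the prostate included, and clear debris, dying cells and microbes. They depend on signals through the receptor CSF1R, take up cargo with scavenger and lectin receptors, degrade it in lysosomes, secrete the complement starter C1q, and sense bacterial lipopolysaccharide with CD14. Many of their activating receptors lack signalling tails of their own and borrow the adaptors TYROBP and FCER1G. In prostate, luminal cells are known by keratins 8 and 18 and by secretory proteins such as probasin.

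Luminal markers were at high intensity on all 7 arrays. Krt8 lay between 5505 and 8523 in T-ETV1 and between 5612 and 7234 in WT, and Pbsn, the probasin gene, between 11930 and 12433 in T-ETV1 and between 12111 and 12447 in WT. The mean log2 level of 13 measured luminal markers was 12.02 to 12.18 on every array.

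The promoters of 4 members are shown because the genes differ in how their signal was spread over the arrays. C1qb and C1qc, which lie next to C1qa on chromosome 4, had the same array order at the top, Lyz2 was nearly as high on both arrays lettered C, and Mrc1 departed from the rest. The windows run from 250 bases before to 50 after the RefSeq gene start (build GRCm38.p6), 5′ to 3′ on the strand of the gene, and cover chr4:136886151-136886450 (minus strand), chr4:136892865-136893164 (minus), chr10:117282223-117282522 (minus) and chr2:14229164-14229463 (plus). Capitals mark GAGGAA or its reverse complement, the core sequence bound by PU.1, a transcription factor of macrophages.
C1qb: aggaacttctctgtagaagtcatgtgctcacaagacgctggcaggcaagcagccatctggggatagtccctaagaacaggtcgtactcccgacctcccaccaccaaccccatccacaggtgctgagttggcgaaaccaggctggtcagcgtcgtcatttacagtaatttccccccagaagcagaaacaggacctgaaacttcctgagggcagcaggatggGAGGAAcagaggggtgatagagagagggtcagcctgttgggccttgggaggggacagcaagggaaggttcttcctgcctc
C1qc: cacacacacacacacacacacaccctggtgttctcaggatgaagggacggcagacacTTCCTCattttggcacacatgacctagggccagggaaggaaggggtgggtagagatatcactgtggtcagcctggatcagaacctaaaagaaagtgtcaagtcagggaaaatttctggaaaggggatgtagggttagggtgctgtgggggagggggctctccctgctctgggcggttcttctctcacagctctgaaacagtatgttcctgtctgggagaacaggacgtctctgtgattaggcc
Lyz2: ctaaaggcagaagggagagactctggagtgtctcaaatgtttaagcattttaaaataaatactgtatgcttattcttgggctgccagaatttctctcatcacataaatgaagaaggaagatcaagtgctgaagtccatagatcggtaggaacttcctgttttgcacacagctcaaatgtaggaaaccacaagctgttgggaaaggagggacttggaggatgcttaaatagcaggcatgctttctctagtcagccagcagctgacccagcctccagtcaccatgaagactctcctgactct
Mrc1: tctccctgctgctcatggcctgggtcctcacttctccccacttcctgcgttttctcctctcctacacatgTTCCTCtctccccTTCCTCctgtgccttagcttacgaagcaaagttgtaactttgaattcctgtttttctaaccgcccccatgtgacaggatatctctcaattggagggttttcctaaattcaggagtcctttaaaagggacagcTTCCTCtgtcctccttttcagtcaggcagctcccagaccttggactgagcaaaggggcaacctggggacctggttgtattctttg

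The RefSeq table held windows that may be shown for 6 of the 10 members. GAGGAA occurred on either strand in 4 of them (Cd68, C1qb, C1qc and Mrc1) and in 28.3% of all 32851 windows of the same length. The C1qb window had 1 match, 30 bases before the gene start, the C1qc window 1 and the Mrc1 window 3. The sequence TATAAA, also searched on both strands, was in 0 of the 6 windows and in 13.6% of all windows. A match describes the letters of the window and not a bound site.

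Csf1r encodes the receptor for the growth factors CSF1 and IL-34, on which macrophages depend. Its intensity was 2.95, 2.85, 295 and 9.01 on T-ETV1 arrays A, B, C and D, and 26.9, 6.10 and 2213 on WT arrays A, B and C. One array of each genotype, the one lettered C, was far above the rest of its group, and the groups overlapped. On the log2 scale T-ETV1 differed from WT by -1.65 ± 1.81 (SE of the limma fit, adjusted p = 0.929). This and all later differences are T-ETV1 minus WT and on the scale log2(intensity + 16), which understates changes of dim genes. The 2 other probe sets of Csf1r also had both C arrays highest.

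Cd68 and Lyz2 stand for the lysosome. Cd68, a lysosomal membrane protein of phagocytes, read 57.5, 106, 212 and 24.8 in T-ETV1 A to D and 24.6, 64 and 820.5 in WT A to C. Array C was again the highest of either group, with T-ETV1 B the next in T-ETV1, and the groups overlapped. The difference was -0.55 ± 1.10 (adjusted p = 0.972). Lyz2 encodes lysozyme, an enzyme that cuts bacterial cell walls. It read 147, 39.6, 4962 and 44.8 in T-ETV1 A to D and 21.1, 34.5 and 5163 in WT A to C. Both C arrays were above 98.1% of the probe sets of their array and nearly level with each other, while the other 5 arrays stayed at or under 147. The difference was 0.10 ± 2.29 (adjusted p = 0.998). A probe set annotated to the near-identical paralog Lyz1 read 5662 in T-ETV1 C and 5890 in WT C, while another Lyz1 probe set stayed at or under 11.3 on all arrays. How far the first of these shares signal with Lyz2 was not tested.

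The chains of C1q, the recognition protein that starts the classical complement pathway, had the same pair of arrays at the top. C1qa read 8.98, 4.95, 156 and 2.71 in T-ETV1 A to D and 13.5, 7.90 and 683 in WT A to C. C1qb read 80.5, 7.99, 1121 and 3.96 in T-ETV1 and 5.98, 8.60 and 3393 in WT. C1qc read 23.5, 10.2, 313 and 2.80 in T-ETV1 and 22.1, 7.94 and 1259 in WT. In each chain WT C was the highest array, T-ETV1 C the next, and the remaining 5 arrays were far lower, so that the groups overlapped. The differences were -1.13 ± 1.38 for C1qa, -0.53 ± 2.22 for C1qb and -1.07 ± 1.62 for C1qc (adjusted p = 0.939, 0.986 and 0.954). The other probe sets of C1qb differed by -0.54 ± 1.77 and -0.45 ± 2.06.

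Mrc1, the mannose receptor CD206 of tissue macrophages, is also made by lymphatic and sinusoidal endothelium. It read 257, 110.3, 240.0 and 13.5 in T-ETV1 A to D and 78.1, 210.2 and 1673 in WT A to C. It was the 1 member in which T-ETV1 C was not the highest T-ETV1 array, since T-ETV1 A lay slightly above it. The difference was -1.38 ± 1.18, with an adjusted p of 0.909, the lowest among the members. Cd14, the lipopolysaccharide co-receptor, read 401, 628, 1928 and 538 in T-ETV1 A to D and 309, 708 and 2541 in WT A to C. It was the member with the narrowest range, 2.97 log2 units, and its lowest array was still above 69.5% of the probe sets of that array. The difference was -0.20 ± 0.81 (adjusted p = 0.986).

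Tyrobp (DAP12) and Fcer1g (the Fc receptor gamma chain) are the signalling adaptors. Tyrobp read 62.8, 4.99, 469 and 9.79 in T-ETV1 A to D and 8.22, 9.40 and 2026 in WT A to C. Fcer1g read 24.9, 45.4, 167 and 24.4 in T-ETV1 A to D and 18.9, 19.2 and 1904 in WT A to C. For both, WT C was the highest array and T-ETV1 C the next, lower by 2.07 log2 units for Tyrobp and by 3.39 for Fcer1g. The differences were -0.68 ± 1.87 for Tyrobp and -1.02 ± 1.49 for Fcer1g (adjusted p = 0.982 and 0.951).

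**Figure D1:**
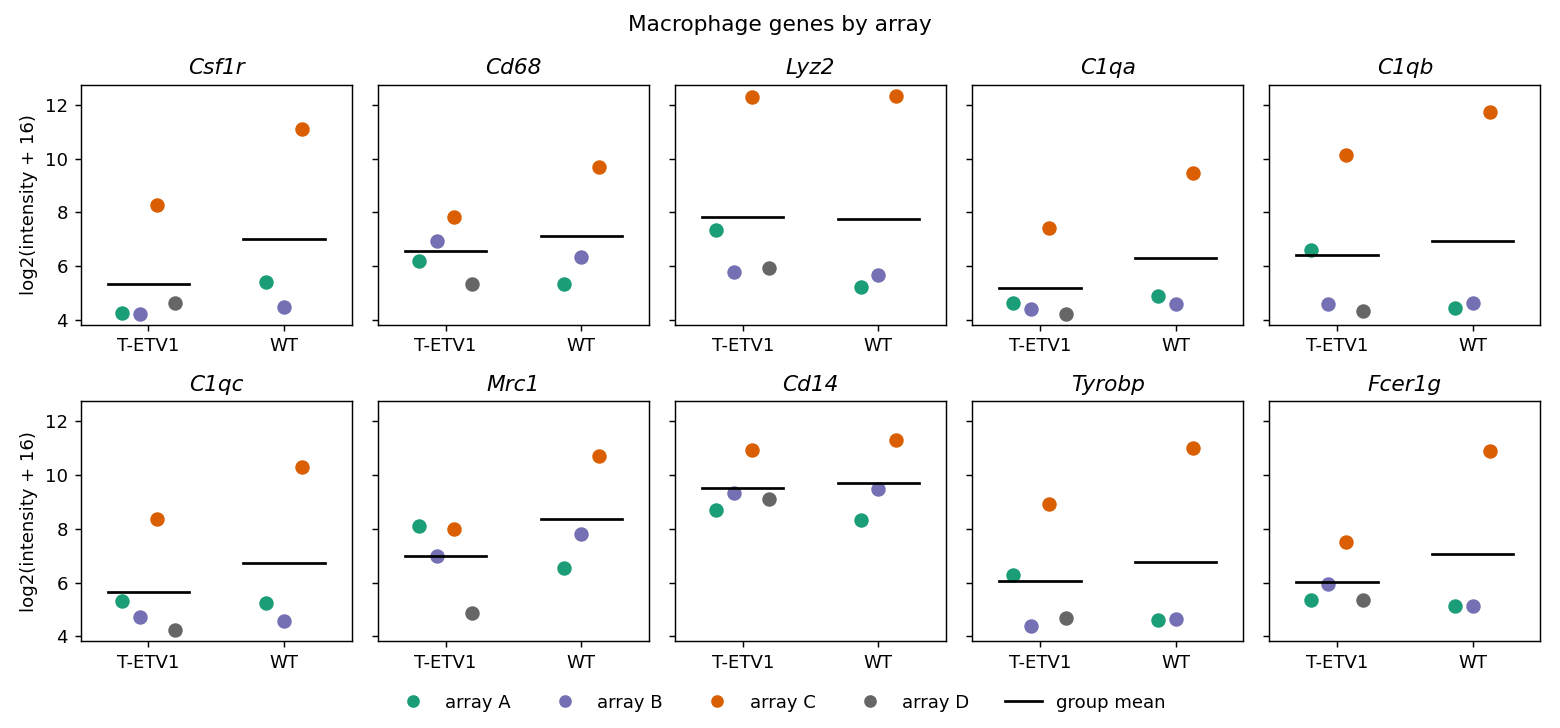
Each point is the log2(intensity + 16) of 1 array for 1 macrophage gene, with T-ETV1 arrays left and WT arrays right, coloured by replicate letter, and the black line is the group mean. The C arrays (orange) lie above the other arrays of their group in every panel but that of Mrc1, where T-ETV1 A is slightly above T-ETV1 C.

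No member differed between the genotypes beyond the spread of the arrays. Of the 10 members 0 passed an adjusted p of 0.05 in limma, as did 0% of all 18193 genes, and 0 had an unadjusted p under 0.05, against 6.12% of all genes. In 0 of 10 members were the groups of arrays apart without overlap, against 6.32% of all genes. By sign, 9 of 10 members were lower in T-ETV1, against 55.6% of all genes, or 32.2% of all genes and again 9 members after the arrays were centred on their medians. The median difference of the members was -0.85, against -0.03 over all genes (0.11 after median centring). With the replicate letter as a block, on arrays A to C and so without T-ETV1 D, it was -0.40, with 8 of 10 members lower. Leaving out T-ETV1 D without a block gave the same median and the same count, so the block itself did not move the estimate. With array weights the median difference of the members was -0.22, with 7 of 10 lower. The standard error of a member was 1.56 at the median and lay between 0.81 and 2.29, while that of all genes was 0.20 at the median. The direction rested on WT C: without it 1 of 10 members (Mrc1) was lower and the median difference was 0.74, and without T-ETV1 C all 10 were lower, with a median of -1.67. Without both arrays C 4 of 10 were lower and the median was 0.23. Of those 4, Csf1r, C1qa and C1qc were at or under 26.9 on all arrays left. Such values are near the bottom of the scale and have no order, so that count rests partly on them.

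**Figure D2:**
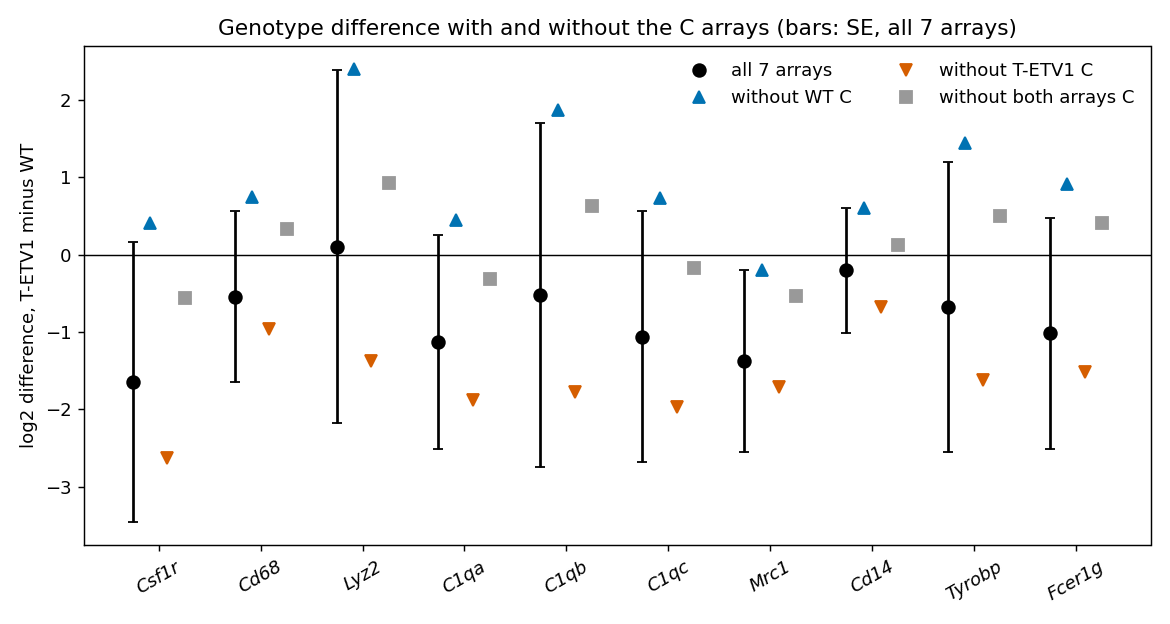
The log2 difference, T-ETV1 minus WT, is plotted for each macrophage gene from all 7 arrays (black, bars are the SE of the limma fit), without WT C (blue), without T-ETV1 C (orange) and without both (grey). Leaving out WT C puts 9 of 10 genes above 0, and leaving out T-ETV1 C puts all 10 below 0.

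In most members the arrays lettered C stood apart in both genotypes. In 9 of 10 members each C array topped its own group, against 19.7% of all genes (8.55% after median centring, with 9 members again). In those same 9 both C arrays were above all other 5 arrays, against 13.9% of all genes. WT C was the highest of the 7 arrays in 10 of 10 members, against 24.2% of all genes; after median centring it was 9 members, since Lyz2 turned, and 10.3% of all genes. The range over the 7 arrays was at least 4 log2 units in 9 members, against 2.96% of all genes, and the range of the remaining member, Cd14, was wider than that of 93.7% of genes. An F test of the letter in the limma fit with genotype, over arrays A to C, was chosen after seeing the data. It called 0 of 10 members at an adjusted p of 0.05 and 0% of all genes, with member adjusted p values of 0.260 to 0.703. At an unadjusted p under 0.05 it held 9 of 10 members, all but Mrc1, against 10.5% of all genes. What the letters stand for is not stated.

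Set against each other, the C arrays did not differ by 1 common factor. T-ETV1 C was below WT C in 10 of 10 members, against 55.8% of all genes, with a median log2 difference of -1.99 against -0.05 over all genes. After median centring Lyz2 turned to 0.13 and Cd14 remained at -0.21, so that 9 of 10 were lower, against 36.1% of all genes. By at least 1 log2 unit T-ETV1 C was lower in 8 of 10 members, against 8.32% of all genes. The C arrays differed by -0.06 for Lyz2 and -0.40 for Cd14, and by -1.58, -2.02 and -1.96 for C1qb, C1qa and C1qc. Csf1r differed by -2.84, Mrc1 by -2.72 and Fcer1g by -3.39, the largest of the 10. These differences compare 1 array with 1 array and have no replicate check.

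In the A pair some members were higher in T-ETV1. T-ETV1 A differed from WT A by 2.13 for Lyz2, 2.14 for C1qb, 1.70 for Tyrobp and 1.54 for Mrc1. In the B pair Mrc1 differed by -0.84, Cd14 by -0.17 and Cd68 by 0.61. For Csf1r, C1qa and C1qc both arrays of the A pair and of the B pair were at or under 26.9, near the bottom of the scale, where values have no order, so no count over these pairs is given.

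**Figure D3:**
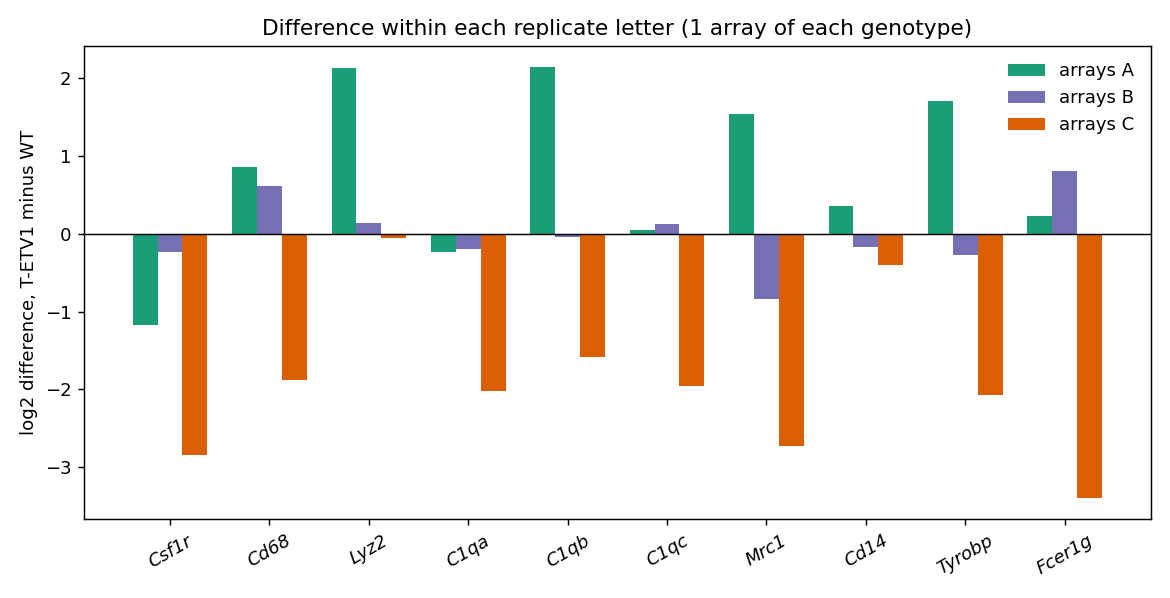
Bars give the log2 difference, T-ETV1 minus WT, between the arrays of 1 letter for each macrophage gene (1 array of each genotype, no error). The C bars are all below 0, from -0.06 for Lyz2 to -3.39 for Fcer1g, and the A bars of Lyz2 and C1qb reach 2.13 and 2.14. Bars of genes near the bottom of the scale on both arrays, such as the A and B bars of C1qa, show no order.

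Ptprc, the gene of the CD45 antigen that the sort selected against, had WT C highest and T-ETV1 C next, as did most members. It read 6.92, 8.30, 56.0 and 4.56 in T-ETV1 A to D and 5.78, 4.63 and 467 in WT A to C. Its difference was -0.996 ± 1.17 (adjusted p = 0.936). In bulk samples such as these, fewer cells of a type and less RNA per cell cannot be told apart.

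Markers of other cell types moved with the members on WT C, and fewer of them on T-ETV1 C. The summed intensity of the 10 members ranged from 674 to 9862 in T-ETV1 and from 529 to 21676 in WT, and their mean log2 level was 8.97 in T-ETV1 C and 10.9 in WT C. For 9 measured mast cell genes that mean was 4.65 in T-ETV1 C and 8.66 in WT C, and their summed intensity ranged from 66.4 to 89.6 in T-ETV1 and from 106 to 8120 in WT. The mast cell tryptase gene Tpsb2, chosen after its values were seen like Fcer1a and Cd3e, read 17.9 in T-ETV1 C and 2307 in WT C. Mast cells use FCER1G as a chain of their IgE receptor, and the gene of its alpha chain, Fcer1a, read 6.68 in T-ETV1 C and 372 in WT C. T-ETV1 C thus held macrophage gene signal with defining mast cell markers near the bottom of the scale. The part of mast cell RNA in the Fcer1g signal of WT C was not tested.

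For 10 pan-leukocyte genes the mean was 7.65 in T-ETV1 C and 9.50 in WT C. WT C was the highest of the 7 arrays in 9 of these 10, against 24.2% of all genes. Cd52 read 5751 to 9153 in T-ETV1 and 6657 to 7259 in WT, and Lcp1 2965 to 3560 in T-ETV1 and 2875 to 3899 in WT. Both, chosen after their values were seen, were thus bright on all 7 arrays and raised the mean on each. Against the same share, WT C was the highest array in 7 of 10 T and NK cell genes and in 5 of 9 B cell genes. It was so in 8 of 9 dendritic cell genes and in 3 of 9 neutrophil genes. The mean of the 10 T and NK cell genes was 5.49 in T-ETV1 C and 7.59 in WT C, and their summed intensity ranged from 604 to 847 in T-ETV1 and from 581 to 2644 in WT. Prf1, chosen after its values were seen, read 400 to 652 in T-ETV1 and 499 to 560 in WT. That 1 gene gave most of the sum on every array but WT C. Cd3e, a chain of the T cell receptor complex, read 4.95 in T-ETV1 C and 887 in WT C, and 68.4 in T-ETV1 A, while Cd4 read 77.6 in T-ETV1 C and 54.5 in WT C. For 9 B cell genes the mean was 5.28 in T-ETV1 C and 6.94 in WT C, with sums from 241 to 758 in T-ETV1 and from 167 to 6744 in WT. One gene, Jchain, which encodes the joining chain of secreted antibodies, gave 456 of the 758 in T-ETV1 A and 6016 of the 6744 in WT C. Ms4a1, the gene of CD20, read 132 in T-ETV1 A, 11.7 in T-ETV1 C and 109 in WT C, and like Cd4 and Jchain was chosen after its values were seen. Neutrophil genes were low throughout. The mean of 9 was 4.76 in T-ETV1 C and 5.35 in WT C, with sums from 62.0 to 128 in T-ETV1 and from 76.7 to 446 in WT, and 7 of the 9 stayed under 100 on all arrays. For 9 dendritic cell genes the mean was 5.44 in T-ETV1 C and 6.81 in WT C, with sums from 944 to 1181 in T-ETV1 and from 829 to 2124 in WT. Bst2, chosen after its values were seen, read 741 to 949 in T-ETV1 and 519 to 971 in WT. It gave most of the dendritic cell sum on every array but WT C.

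Markers of basal, stromal and vessel cells had their highest list mean of each group on array C. The mean of 9 basal genes was 9.82 in T-ETV1 C and 10.4 in WT C, that of 10 fibroblast genes 8.59 in T-ETV1 C and 10.7 in WT C, that of 12 endothelial genes 7.15 in T-ETV1 C and 8.92 in WT C, and that of 10 smooth muscle genes 6.84 in T-ETV1 C and 8.64 in WT C. On WT B the basal mean was 9.47, the fibroblast mean 8.52, the endothelial mean 7.40 and the smooth muscle mean 7.35, the last 2 above those of T-ETV1 C, while the member mean was 8.97 in T-ETV1 C and 5.74 in WT B. On the A arrays the basal mean was 6.09 in T-ETV1 and 8.18 in WT, the fibroblast mean 6.31 in T-ETV1 and 7.52 in WT, and the endothelial mean 5.92 in T-ETV1 and 6.79 in WT, while the member mean was 6.28 in T-ETV1 and 5.52 in WT. Whether the members' signal came with these cells was not tested.

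**Figure D4:**
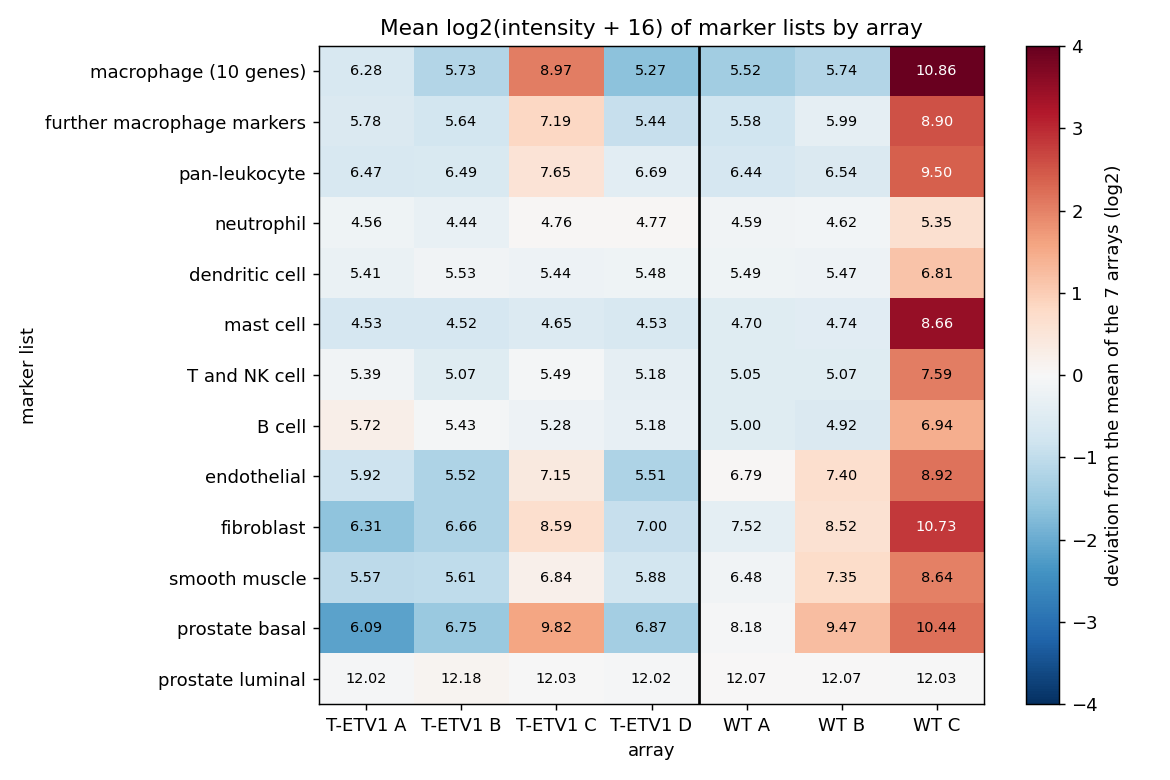
Each cell gives the mean log2(intensity + 16) of a marker list on 1 array, T-ETV1 arrays left of WT arrays, coloured by its deviation from the mean of the 7 arrays. The macrophage row is high on T-ETV1 C (8.97) and WT C (10.9), the mast cell row on WT C alone (8.66), and the luminal row is level at 12.02 to 12.18.

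Of the ligands of CSF1R and the transcription factors of myeloid cells, 9 of 10 were measured and 0 passed the adjusted threshold. By sign 9 were lower in T-ETV1, and 8 after median centring (Runx1 turned), with a median difference of -0.63. For this list and those that follow, the share of all genes lower by sign was 55.6%, or 32.2% after median centring. Il34, a ligand of CSF1R, differed by -0.72 ± 0.25 and Csf1, the other ligand, by -0.66 ± 0.56. Nr1h3, which encodes the sterol sensor LXR alpha, differed by -0.67 ± 0.21, and Maf, a factor of macrophages and other cells, by -0.63 ± 0.55. Adjusted p values of these 4 lay between 0.751 and 0.910. The array order of the members was not that of Il34, which stayed at or under 33.3 on all arrays. Spi1, the gene of PU.1, chosen after its values were seen, read 29.7 in T-ETV1 C and 49.7 in WT C and 12.9 or less elsewhere.

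Of the complement partners 9 of 14 were measured, 0 passed, and 9 were lower by sign (median -0.43), but 6 after median centring, when C1ra, Itgam and Itgb2 turned. C1s1, a protease that works with C1q, read 5144 to 5881 in T-ETV1 and 6059 to 6498 in WT, with a difference of -0.16 ± 0.10, and its partner C1ra, chosen after its values were seen, read 5805 to 6437 in T-ETV1 and 6190 to 6225 in WT. The protease genes were thus at high intensity on all 7 arrays, also where the C1q chains were near the bottom of the scale. C2, a later component of the pathway, differed by -1.80 ± 0.57, Serping1, which encodes the C1 inhibitor, by -2.10 ± 0.96, and Itgam, a complement receptor subunit, by -0.12 ± 0.12. Itgam stayed at or under 8.72 on all arrays, near the bottom of the scale, where values have no order. Its sign and its turn after centring therefore carry no direction. Adjusted p values of the 4 named by rule lay between 0.757 and 0.927.

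Of 19 lysosome, phagocytosis and scavenger receptor genes 0 passed, with 13 lower and 6 higher and a median of -0.19, or 10 lower after median centring (Marco, Ctsb and Ctsd turned). Of all genes 55.6% were lower, or 32.2% after median centring. Axl, a receptor for dying cells, differed by -2.59 ± 1.21, Stab1, a scavenger receptor of macrophages and endothelium, by -2.28 ± 1.12, Cyba, a subunit of the phagocyte oxidase, by -1.39 ± 0.75, and Siglec1, a sialic acid receptor, by -0.52 ± 0.24 (adjusted p = 0.823 to 0.858). Siglec1 was low throughout, at or under 37.0 on all arrays. Axl read 23.2, 37.0 and 29.3 in T-ETV1 A, B and D, against 258 and 513 in WT A and B. T-ETV1 C was lower than WT C by at least 1 log2 unit in 6 of these 19 genes, against 8.32% of all genes. Among scavenger receptor genes chosen after their values were seen, Msr1 read 293 in T-ETV1 C and 65.0 in WT C, and Timd4, a receptor of long-lived resident macrophages, 115 in T-ETV1 C and 170.4 in WT C. Cd163, the haemoglobin scavenger receptor, read 54.8 in T-ETV1 C and 772 in WT C, and Clec10a, a lectin, 19.1 in T-ETV1 C and 975 in WT C.

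Of the partners of CD14, 9 of 11 were measured, 0 passed, 8 were lower and 1 higher (median -0.32), or 7 lower after median centring (Ticam1 turned). Tlr4, the signalling receptor that CD14 feeds, read 174.6, 354, 153 and 169 in T-ETV1 A to D and 318, 346 and 244 in WT A to C, so that the C arrays were the lowest of their groups. Its difference was -0.54 ± 0.30. Ly96, the MD-2 subunit of that receptor, chosen after its values were seen, read 1179 to 1511 in T-ETV1 and 1071 to 1331 in WT. Tlr1 differed by -1.43 ± 0.33 and Tlr2, its partner, by -0.67 ± 0.37. In T-ETV1, Tlr1 was at or under 11.5, near the bottom of the scale. Lbp, which hands lipopolysaccharide to CD14, differed by -2.09 ± 0.86. Adjusted p values of the 4 named by rule lay between 0.628 and 0.865.

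Of a list of receptors and signalling proteins related to TYROBP and FCER1G, not all of them partners, 19 of 22 were measured and 0 passed. By sign 15 were lower and 4 higher (median -0.24), and 10 stayed under 100 on all arrays. After median centring 12 were lower (Trem3, Fcgr3 and Oscar turned). Trem2, a lipid receptor that signals through TYROBP, read 3.76, 8.37, 4.30 and 3.65 in T-ETV1 A to D and 12.2, 15.9 and 105 in WT A to C. Its difference was -1.19 ± 0.50. Fcgr2b, the inhibitory Fc receptor, differed by -1.93 ± 0.95, Trem1 by 0.29 ± 0.15 and the lectin Clec4n by -0.29 ± 0.16 (adjusted p = 0.812 to 0.859 for the 4). Trem1 stayed at or under 13.2 on all arrays, where values have no order, and Clec4n at or under 36.4. Fcgr3, an activating Fc receptor that signals through FCER1G, chosen after its values were seen, was at 127 or more on all arrays and read 673 in T-ETV1 C and 1381 in WT C.

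Of 20 further macrophage markers 19 were measured, 0 passed, 17 were lower and 2 higher (median -0.63, and 0.12 without both arrays C), or 15 lower after median centring (Ms4a6d and Csf3r turned). Each C array topped its group in 11 of the 19, against 19.7% of all genes. Lyve1, a hyaluronan receptor of lymphatic vessels and some macrophages, differed by -3.10 ± 1.40, Aif1, an actin-binding protein of macrophages, by -1.74 ± 0.76, Csf2rb, a cytokine receptor chain, by -1.49 ± 1.02 and Lst1 by -0.63 ± 0.41 (adjusted p = 0.822 to 0.881). Lyve1 read 71.1, 30.6 and 35.0 in T-ETV1 A, B and D, against 936 and 1266 in WT A and B, and was higher in T-ETV1 C, at 2423, than in WT C, at 1740. It passed the limma threshold without T-ETV1 C (-4.45, adjusted p = 0.0216) and without both arrays C (-4.22, adjusted p = 0.0314). Adgre1, the gene of the macrophage antigen F4/80, chosen after its values were seen like the next, read 464 in T-ETV1 C and 1005 in WT C and at most 12.7 elsewhere. Ms4a6d was level, at 302 in T-ETV1 C and 317 in WT C. Ccr2, the chemokine receptor of monocytes, read 2.45 in T-ETV1 C and 227 in WT C, and Ms4a7 3.38 in T-ETV1 C and 509.8 in WT C. Both genes were at or under 13.8 on the arrays other than WT C.

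The genes whose array profile lay closest to the mean profile of the members were named by the root mean square difference of centred log2 values over the 7 arrays, among 11182 genes that reached a log2 level of 7. The 10 closest were Rgs1, Ccl3, Plek, Fcna, Fcgr4, Il1b, Ccl8, Ly86, Scara5 and Srgn, at 0.22 to 0.40 log2 units, against a median of 1.96 over those genes. The members themselves lay at 0.30 (C1qc) to 1.15 (Lyz2). Ccl3 and Ccl8 encode chemokines, Il1b the cytokine interleukin 1 beta, Fcna the lectin ficolin A and Fcgr4 an Fc receptor that pairs with FCER1G. Rgs1, the closest, read 9.33, 8.06, 197 and 4.77 in T-ETV1 A to D and 6.97, 9.76 and 913 in WT A to C. All profiles come from the same 7 arrays, so the likeness is a description and no test was made. Of the 10, 2 (Fcgr4 and Ly86) were in a list of macrophage or partner genes used here.

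**Figure D5:**
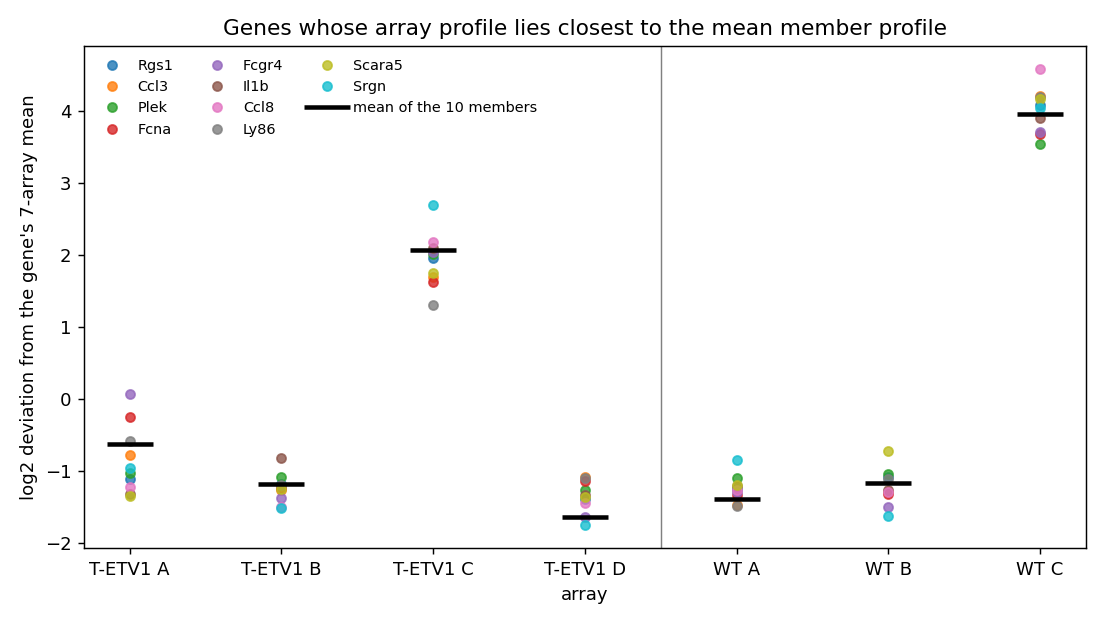
Points give the log2 deviation of each of the 10 closest genes from its own mean over the 7 arrays, and black marks give the mean of the 10 macrophage genes. All points lie above 1 on T-ETV1 C and above 3 on WT C, and near or below 0 on the other arrays.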

How the data were processed

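The authors deposited 1 linear intensity for each probe set on each array, between 0.98 and 14597. How the authors summarised probes and scaled arrays is not given in the sources used here. Per the labels' protocols, RNA was extracted with Trizol, amplified with a NuGEN V2 kit and labelled with biotin. The submitters mention 3 biological replicates but label 4 T-ETV1 arrays; all 7 arrays were used. Where nothing shows separate animals, p-values measure the spread between arrays, which may be technical.

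Values were used as log2(intensity + 16) of the deposited intensities. Array medians differed by 0.476 at most, under the limit of 0.5 above which they would have been quantile-normalized. Of the probe sets 34945 had 1 symbol, 932 several and 9160 were not listed; 34741 were named by Entrez ID (GRCm38.p6), and the probe set with the highest mean stood for a gene. The test was that of limma 3.58.1 (R 4.3.3; 4 against 3 arrays, eBayes, Benjamini-Hochberg over 18193 genes, two-sided, threshold 0.05). Beside the members, up to 4 genes of each of 6 partner lists with the smallest p, the 10 closest profiles and Ptprc were named by rule; list genes without a probe set of 1 symbol were not analysed here. The members and lists were chosen with earlier results of these data known. Deviations from the group means correlated at 0.281, 0.217 and 0.356 for the A, B and C arrays. Arrays of unlike letters ran from -0.320 to 0.187, the highest being T-ETV1 D with WT A. Deviations within so few arrays are not independent, so these values are weak evidence of pairing. The letters were taken as pairs in description, but the main fit does not use them. The fit with the letter as a block is an alternative, beside those of scaling, pseudocount, dim genes, probe set rule, trend, array weights, and left-out arrays.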

Additional observations from a re-analysis of the deposited data

Results flagged for a closer look

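Of 45 genes named by rule, 17 had 1 T-ETV1 array apart from the other 3, by a gap over the group's range above Dixon's critical value, in 14 of them T-ETV1 C. Chance flags about 1 in 20 groups, and 6.81% of all genes had such an array. The 10 closest profiles were named for likeness to members in which T-ETV1 C is high, so the 6 of them counted here follow from that choice; without them it was 11 of 35 genes. Among the members the ratio was 0.899 for Csf1r and 0.87 for C1qa, with T-ETV1 C the higher. T-ETV1 C also stood above the others for Ptprc (0.867), Maf (0.877), Axl (0.904), Stab1 (0.962) and Lyve1 (0.842), and for the close profiles of Rgs1 (0.915), Ccl3 (0.834), Plek (0.926), Il1b (0.849), Ccl8 (0.922) and Scara5 (0.961). It stood below them for Nr1h3 (0.856). T-ETV1 B stood above the others for Tlr4 (0.85) and Trem2 (0.849), and T-ETV1 A below them for Trem1 (0.921). In T-ETV1, however, Trem2 was at or under 8.37 and Trem1 at or under 13.2, near the bottom of the scale, where values have no order. Both are counted among the 17. For Csf1r, C1qa, Ptprc, Rgs1, Ccl3, Plek, Ccl8 and Scara5 the other 3 T-ETV1 arrays were also near the bottom of the scale, at or under 14.44. T-ETV1 C was above them, but the size of these ratios rests partly on values without order.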

How the results depend on the processing

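No member passed the threshold under any of 18 alternatives (smallest adjusted p 0.649), and over all genes 0 passed, except 68 without both arrays C and 0 to 27 when 1 array was left out (27 without T-ETV1 C, 7 without WT C). With the replicate block on arrays A to C, 8 of 10 members were lower, their median difference was -0.40, C1qb turned to 0.17 and no call changed. The fit without T-ETV1 D and without a block gave the same count, median and C1qb value. Without both arrays C, 4 members were lower, the median difference over members was 0.23, and Cd68 (0.33), C1qb (0.63), Cd14 (0.13), Tyrobp (0.49), Fcer1g (0.41), Csf1 (0.0605) and Ptprc (0.0886) turned. Of the 4 lower members, Csf1r, C1qa and C1qc were near the bottom of the scale on all arrays left. Array weights gave a median of -0.22 with 7 lower and turned C1qb (0.43) and Tyrobp (0.29), a pseudocount of 64 turned Lyz2 (-0.0924) and median centring turned Itgam (0.0207). Itgam was near the bottom of the scale on all arrays. With 1 array left out in turn, 1 to 10 members were lower and the median difference over members ran from -1.78 to 0.74, the highest without WT C. The differences then ran from -2.92 to 0.41 for Csf1r, -1.44 to 0.75 for Cd68, -1.38 to 2.40 for Lyz2, -1.995 to 0.44 for C1qa, -1.77 to 1.87 for C1qb, -2.13 to 0.73 for C1qc, -0.89 to 0.60 for Cd14, -1.76 to 1.44 for Tyrobp, -1.98 to 0.91 for Fcer1g, -1.26 to 0.0132 for Csf1 and -1.77 to 0.51 for Ptprc. Lyve1 passed without both arrays C (-4.22) and without T-ETV1 C (-4.45). The cause of these turns was not tested. Detection calls per probe set were not analysed here, so values near the bottom of the scale have no order.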
